A study of Mus musculus with 4 samples.

Results

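The genes described here encode molecular chaperones and their regulators: 22 genes of the endoplasmic reticulum (ER) and its unfolded protein response, 13 of the cytosolic heat shock response, 3 mitochondrial chaperones and 4 subunits of the TCP1 ring. These 42 genes were taken from a list of names. Of them, 40 had a probe set with a single gene symbol, out of 18193 genes named on the array, and where a gene had several, the one with the highest signal averaged over the arrays stood for it. Hsp90ab1 and Hsf1 were not analysed here. RNA came from 2 cell lines, 8534 and 8542, each grown from a primary mammary tumor of a different female MMTV-tTA/TOP-ICN1 mouse (strain FVB/N;B6). All cells carried both transgenes: the MMTV promoter drives the tetracycline transactivator (tTA), which in turn switches on human ICN1, the part of NOTCH1 that enters the nucleus and is active without ligand. Cells treated with 2 µg/ml doxycycline for 24 hours (ICN1 off) were compared with untreated cells (ICN1 on), with 1 Affymetrix array per line and condition, 4 arrays in all. No line without the transgenes was analysed here, so an effect of doxycycline itself cannot be told apart from the loss of ICN1, and in bulk RNA less transcript per cell cannot be told apart from fewer cells that express it.

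Chaperones bind unfolded proteins and let them fold. In the ER, BiP (encoded by Hspa5) holds the stress sensors inactive until unfolded proteins draw it away: ATF6, which is cut to release a transcription factor, IRE1, which splices Xbp1 mRNA, and PERK, which slows translation. Their transcriptional output is a set of ER chaperones, disulfide isomerases and degradation factors. In the cytosol, heat shock factor induces the Hsp70 and Hsp90 systems and the small heat shock proteins, whereas the TCP1 ring folds actin and tubulin, and Hsp60 with Hsp10 fold proteins imported into mitochondria.

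Many of the ER genes carry a known stress element just before their start sites, which is shown because the genes that hold it are reported on as a set with the ER chaperones. The ER stress response element (ERSE), CCAAT followed by 9 bases of any kind and CCACG, was searched on both strands in RefSeq promoter windows of 300 bases (250 before and 50 after the start, build GRCm38.p6). It was in the windows of 9 of 18 ER genes that had one and in none of 9 cytosolic, 2 mitochondrial and 4 TCP1-ring genes, against 0.119% of all 32851 windows. The shorter ERSE-II, ATTGG and CCACG with 1 base between them, was in 2 further ER genes, against 0.0365% of all windows. A member was counted once if any of its windows held the motif (6 had several windows), whereas the shares of all windows count each window singly. Each match is given 5′ to 3′ in the direction of the motif, with its fixed letters in capitals.

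Hspa5 (BiP), chr2:34772025-34772043, plus strand, 65 bases before the start: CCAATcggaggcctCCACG
Hsp90b1 (GRP94), chr10:86705638-86705656, minus strand, 212 bases before the start: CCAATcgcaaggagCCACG
Hsp90b1, chr10:86705533-86705551, plus strand, 107 bases before the start: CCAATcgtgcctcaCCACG
Calr (calreticulin), chr8:84847075-84847093, plus strand, 162 bases before the start: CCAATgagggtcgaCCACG
Canx (calnexin), chr11:50325800-50325818, minus strand, 145 bases before the start: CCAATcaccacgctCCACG
Pdia6, chr12:17266491-17266509, plus strand, 98 bases before the start: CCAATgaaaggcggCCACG
Dnajc3, chr14:118937827-118937845, plus strand, 105 bases before the start: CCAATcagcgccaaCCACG
Creld2, chr15:88819520-88819538, minus strand, 126 bases before the start: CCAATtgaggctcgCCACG
Syvn1, chr19:6046532-6046550, plus strand, 44 bases before the start: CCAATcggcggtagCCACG
Derl3, chr10:75893242-75893260, minus strand, 156 bases before the start: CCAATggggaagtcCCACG
Herpud1 (ERSE-II), chr8:94386377-94386387, plus strand, 52 bases before the start: ATTGGgCCACG
Dnajb11 (ERSE-II), chr16:22857852-22857862, plus strand, 8 bases after the start: ATTGGcCCACG

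The surroundings of the BiP element are given as the example of the group, chr2:34771940-34772089, plus strand, with the CCAAT and CCACG of its ERSE in capitals.
Hspa5 upstream: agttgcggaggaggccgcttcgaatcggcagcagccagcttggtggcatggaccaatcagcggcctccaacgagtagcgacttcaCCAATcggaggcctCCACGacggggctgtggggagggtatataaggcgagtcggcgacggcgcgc

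Neither UPRE (TGACGTGG) nor the CRE-like letters TGACGTCA were found in the window of any of the 33 members that had one (0.676% and 1.79% of all windows). A match is a description of these letters and not a tested binding site, and a window without one says nothing of the factor.

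The switch itself was read from genes that NOTCH1 controls. Of 6 such genes 5 fell and Hes1 did not pass the test. Nrarp, a feedback inhibitor of NOTCH, had a signal of 219 and 143 units in doxycycline-treated 8534 and 8542 cells, against 4730 and 4511 units in untreated cells (limma adjusted p = 7.86e-05). The probe sets measure mouse transcripts, and the human transgene was not measured directly. The luminal epithelial markers Krt8, Krt18 and Epcam lay at 1663 units or above on all 4 arrays. Of the 5 luminal markers, Krt8 and Krt18 rose and Krt19 fell (limma adjusted p = 0.0295, 0.0163 and 0.00302), and their summed signal was 22506 and 16377 units in treated and 19023 and 16164 units in untreated 8534 and 8542 cells. The part of this shift in the chaperone results was not tested. None of the 11 markers of basal, leukocyte, fibroblast and endothelial cells that passed the filter was called. The basal marker Krt14 was at 869 units in treated and 1379 units in untreated 8534 cells. In treated and untreated 8542 cells it was at 10.0 and 15.9 units (limma adjusted p = 0.0635). Of the other basal markers, Krt5 had opposite signs in the lines and Trp63 was higher in treated cells of both. The leukocyte marker Ptprc lay between 6.08 and 7.20 units, where the lowest 20% of all values lay under 5.52 units. The fibroblast marker Col1a1 was at 271 units in treated and 151 units in untreated 8534 cells, and at 17.2 and 34.6 units in treated and untreated 8542 cells. All 40 members had every signal above 5.52 units, the lowest being 30.2 units, and all 40 passed the expression filter.

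Chaperone genes were called after doxycycline in shares close to those of all tested genes, and those called were of the ER, cytosolic and mitochondrial groups. Doxycycline was set against no doxycycline within the lines in limma, over all probe sets outside the lowest 25% by mean level, and a gene was called at a Benjamini-Hochberg adjusted p under 0.05. Of 40 members, Hspb1 and Xbp1 rose (5.0%, against 4.76% of all 15070 tested genes called higher) and Hspb8, Hspd1 and Hspe1 fell (7.5%, against 6.95% called lower). Both shares were close to those of all genes. The methods asked for a change above 2-fold the same way in 8534 and 8542 cells. This held for Hspb1 (higher) and Hspb8 (lower), 1 of 40 members in each direction. Of all 18193 genes, which include those under the expression filter, 3.09% and 4.42% were past the rule in these directions. Among the 15070 tested genes 351 and 630 were past it. The other 35 members did not pass the test, with mean log2 fold changes of at most 0.48 in size. At an unadjusted p under 0.05 there were 5 members higher and 7 lower. No member passed with the line block left out or with the intensity trend left out (lowest limma adjusted p = 0.334 and 0.237). The p values rest on 2 lines with 1 array each per condition, so that array noise cannot be separated from the spread between lines.

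**Figure D1:**
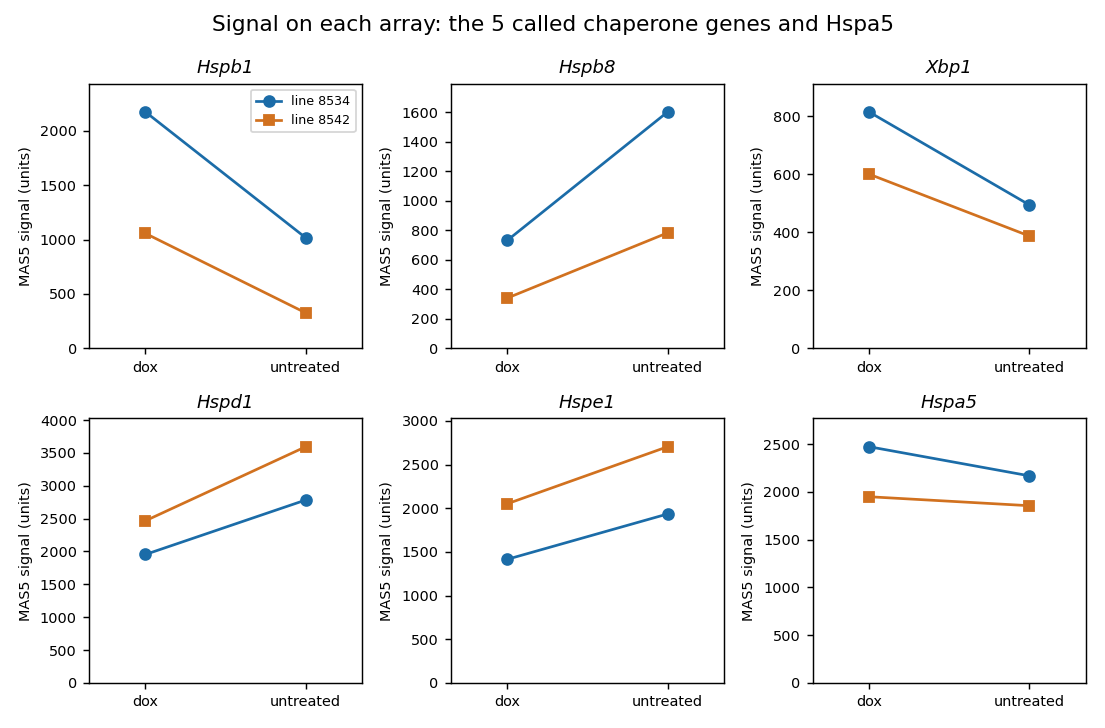
MAS5 signal (units, linear axis from 0) of the 5 called chaperone genes and of Hspa5 in doxycycline-treated (dox) and untreated cells; each point is 1 array and lines join the arrays of 1 cell line. Hspb1 and Xbp1 are higher and Hspb8, Hspd1 and Hspe1 lower in treated cells of both lines, and Hspa5 lies at 2474 and 1950 units with doxycycline, against 2169 and 1856 units without.

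The small heat shock proteins gave the largest changes of the 40 members in either direction. Hspb1 (probe set 1422943_a_at), which encodes Hsp25, an ATP-independent holdase that binds unfolding proteins and protects actin filaments, had 2175 and 1056 units in treated 8534 and 8542 cells, against 1016 and 324.5 units in untreated cells. Both treated arrays lay above both untreated arrays, although line 8534 gave the higher signal in either condition. Hspb1 rose 2.14-fold and 3.25-fold, which averaged 1.40 ± 0.43 on the log2 scale (SD over 2 lines, limma adjusted p = 0.00266). Its other probe set (1425964_x_at) rose as well, 1.99-fold and 5.17-fold (limma adjusted p = 0.0126).

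Hspb8 (1417013_at), the small heat shock protein that works with BAG3 in chaperone-assisted autophagy, went the other way. It had 732 and 340 units in treated 8534 and 8542 cells, against 1603 and 783 units in untreated cells, with no overlap between the conditions. Hspb8 fell 2.19-fold and 2.30-fold, which averaged -1.17 ± 0.051 on the log2 scale (SD over 2 lines, limma adjusted p = 0.00178). A further probe set (1417014_at) fell 3.17-fold and 2.25-fold (limma adjusted p = 0.00275), and the third (1456434_x_at) was 1.64-fold and 1.29-fold lower and did not pass (limma adjusted p = 0.117). Bag3, the partner of Hspb8, had 232 and 173 units in treated and 243 and 144 units in untreated 8534 and 8542 cells, log2 fold changes of -0.071 and 0.26 (limma adjusted p = 0.804).

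Among the ER genes Xbp1 alone passed the test (1 of 22 higher, 4.5%, against 4.76% of all tested genes, and 0 lower, against 6.95%). Xbp1 (1420886_a_at), the transcription factor whose mRNA IRE1 splices, had 814 and 600 units in treated 8534 and 8542 cells, against 494 and 386 units in untreated cells. The conditions did not overlap, and Xbp1 rose 1.65-fold and 1.55-fold, or 0.68 ± 0.062 on the log2 scale (SD over 2 lines, limma adjusted p = 0.0166). Its 3 other probe sets had higher signals in treated cells of both lines, by 1.14-fold to 1.68-fold, but none passed (limma adjusted p = 0.0784 to 0.453), and the mean over all 4 did not pass either (0.47 on the log2 scale, adjusted p = 0.098). These 3' probe sets do not separate spliced from unspliced Xbp1 mRNA.

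The upstream bases of the 2 genes that rose are shown with the core letters bound by CSL, the DNA-binding partner of ICN1 (TGGGAA, on either strand), in capitals. Xbp1 held these letters at 66 and at 135 bases before the start and Hspb1 at 171 bases. The letters were in a window of 10 of 33 members (30.3%, each member counted once) and in 25.6% of all windows, each window counted singly. Of these 10 members 2 were called, Xbp1 and Hspb1, and the others were not. Of the genes that fell, Hspd1 and Hspe1 did not hold the letters in their windows, and Hspb8 was not among the members with a match. A link between the letters and the changes was not tested.
Xbp1 upstream, chr11:5520391-5520640, plus strand: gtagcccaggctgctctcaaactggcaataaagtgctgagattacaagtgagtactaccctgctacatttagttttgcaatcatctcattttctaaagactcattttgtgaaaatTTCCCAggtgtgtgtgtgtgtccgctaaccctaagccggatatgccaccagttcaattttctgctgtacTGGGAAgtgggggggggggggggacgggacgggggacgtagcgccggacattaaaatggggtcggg
Hspb1 upstream, chr5:135887669-135887918, plus strand: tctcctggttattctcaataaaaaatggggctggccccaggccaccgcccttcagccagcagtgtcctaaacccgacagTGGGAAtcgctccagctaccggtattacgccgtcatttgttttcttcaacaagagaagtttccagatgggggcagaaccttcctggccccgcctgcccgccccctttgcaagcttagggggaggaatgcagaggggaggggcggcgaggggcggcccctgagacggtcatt

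The chaperones that unfolded protein stress induces did not pass the test. Hspa5, the gene of BiP (1416064_a_at), had 2474 and 1950 units in treated 8534 and 8542 cells, against 2169 and 1856 units in untreated cells. The mean difference was 0.13 ± 0.084 on the log2 scale (SD over 2 lines, limma adjusted p = 0.536), and the treated and untreated ranges overlapped. Hsp90b1, the ER paralog of Hsp90, had 1390 and 997 units in treated and 1341 and 1259 units in untreated 8534 and 8542 cells (log2 fold changes of 0.052 and -0.34). The lectin chaperones Calr and Canx, which hold glycoproteins during folding, had mean log2 fold changes of 0.15 and 0.038. Those of the disulfide isomerases Pdia3, Pdia4 and Pdia6 were 0.11, -0.064 and 0.22. None of the 11 ER genes with an ERSE or ERSE-II match was called, where 4.76% of all tested genes were called higher and 6.95% lower (a count of 0 in 11 genes is close to these shares).

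Co-chaperones and secreted helpers of BiP were spread more widely. Dnajb9 and Dnajb11, J-domain proteins that pass substrates to BiP, had higher signals in treated cells of both lines: Dnajb9 was at 337 and 356 units in treated and 255 and 272 units in untreated 8534 and 8542 cells, log2 fold changes of 0.40 and 0.39 (limma adjusted p = 0.14). For Dnajb11 they were 0.35 and 0.50 (limma adjusted p = 0.192). Sdf2l1, a BiP cochaperone, had the lowest mean of the ER group and the widest spread. It had 87.7 units in treated and 73.7 units in untreated 8534 cells, but 54.0 units in treated and 92.5 units in untreated 8542 cells (mean log2 fold change -0.26 ± 0.73; limma adjusted p = 0.658). Dnajc3, the nucleotide exchange factor Hyou1 and the secreted protein Manf also had opposite signs in the lines, whereas Creld2 was close to 0 in both (0.014 and 0.066).

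None of the sensors and ER-associated degradation factors among the members was called. The sensor Atf6 had log2 fold changes of 0.054 and 0.30. Herpud1, which organises the degradation complex in the ER membrane, had 226 and 150 units in treated and 126 and 141 units in untreated 8534 and 8542 cells (log2 fold changes of 0.84 and 0.09; limma adjusted p = 0.26). The ubiquitin ligase Syvn1 and its partner Sel1l differed by probe set. For Syvn1 the main probe set changed by 0.28 and 0.11 on the log2 scale and the other by 0.41 and 0.60 (limma adjusted p = 0.483 and 0.0809). For Sel1l the main probe set changed by 0.075 and -0.047, and the 4 others by 0.18 to 0.43 in both lines, none of them called. The mannosidase-like Edem1 and the channel component Derl1 had mean log2 fold changes of 0.27 and 0.076, and Derl3 had opposite signs (-0.25 and 0.41).

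As a group the ER genes lay slightly above 0. The median of their log2 fold changes was 0.20 for line 8534 and 0.081 for line 8542, where the median of all tested genes was 0.011 and 0.00014. By the probe set of highest mean signal, 13 of 22 members had a higher signal with doxycycline in both lines (59.1%, against 34.2% of all tested genes). By the same probe sets 0 had a lower one in both (33.3% of all tested genes) and 9 had opposite signs. The count depends on the probe set: another one of Hspa5, Hsp90b1, Canx, Pdia3, Pdia6 and Dnajc3 was lower in both lines. All other probe sets of Calr, Xbp1, Herpud1, Sel1l, Edem1 and Syvn1 were higher in both. Of 32 other ER genes from a wider list, 2 rose (6.25%, against 4.76% of all tested genes) and 0 fell (against 6.95%), and the median was 0.23 in both lines. Of these 32, 22 had a higher signal in both lines, 8 a lower one in both and 2 had opposite signs. Those that rose were Eif2ak3, which encodes PERK, and Mbtps1, the site-1 protease that cleaves ATF6. Eif2ak3 had 611 and 362 units in treated and 309 and 228 units in untreated 8534 and 8542 cells, or 0.82 ± 0.23 on the log2 scale (SD over 2 lines, limma adjusted p = 0.015), and for Mbtps1 it was 0.68 ± 0.024 (limma adjusted p = 0.0154). Of 7 genes of the PERK branch, 1 rose (14.3%, against 4.76% of all tested genes) and 0 fell (against 6.95%). The gene that rose was Atf3, 1.85-fold in either line (limma adjusted p = 0.0321), and the other 6 did not pass. The median of the 7 was 0.89 in line 8534 and 0.11 in line 8542. Ddit3, the gene of CHOP, had log2 fold changes of 0.96 and 0.50 and lay just outside the threshold (limma adjusted p = 0.0532). Sesn2, with log2 fold changes of 0.71 and 0.66, lay as close to it (limma adjusted p = 0.0531). The rest of the branch was not alike: Atf4 (0.031 and -0.25) and Chac1 (1.08 and -0.37) had opposite signs in lines 8534 and 8542. Ppp1r15a was close to 0 in both (-0.0031 and -0.045), and Trib3 had log2 fold changes of 0.97 and 0.11.

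**Figure D2:**
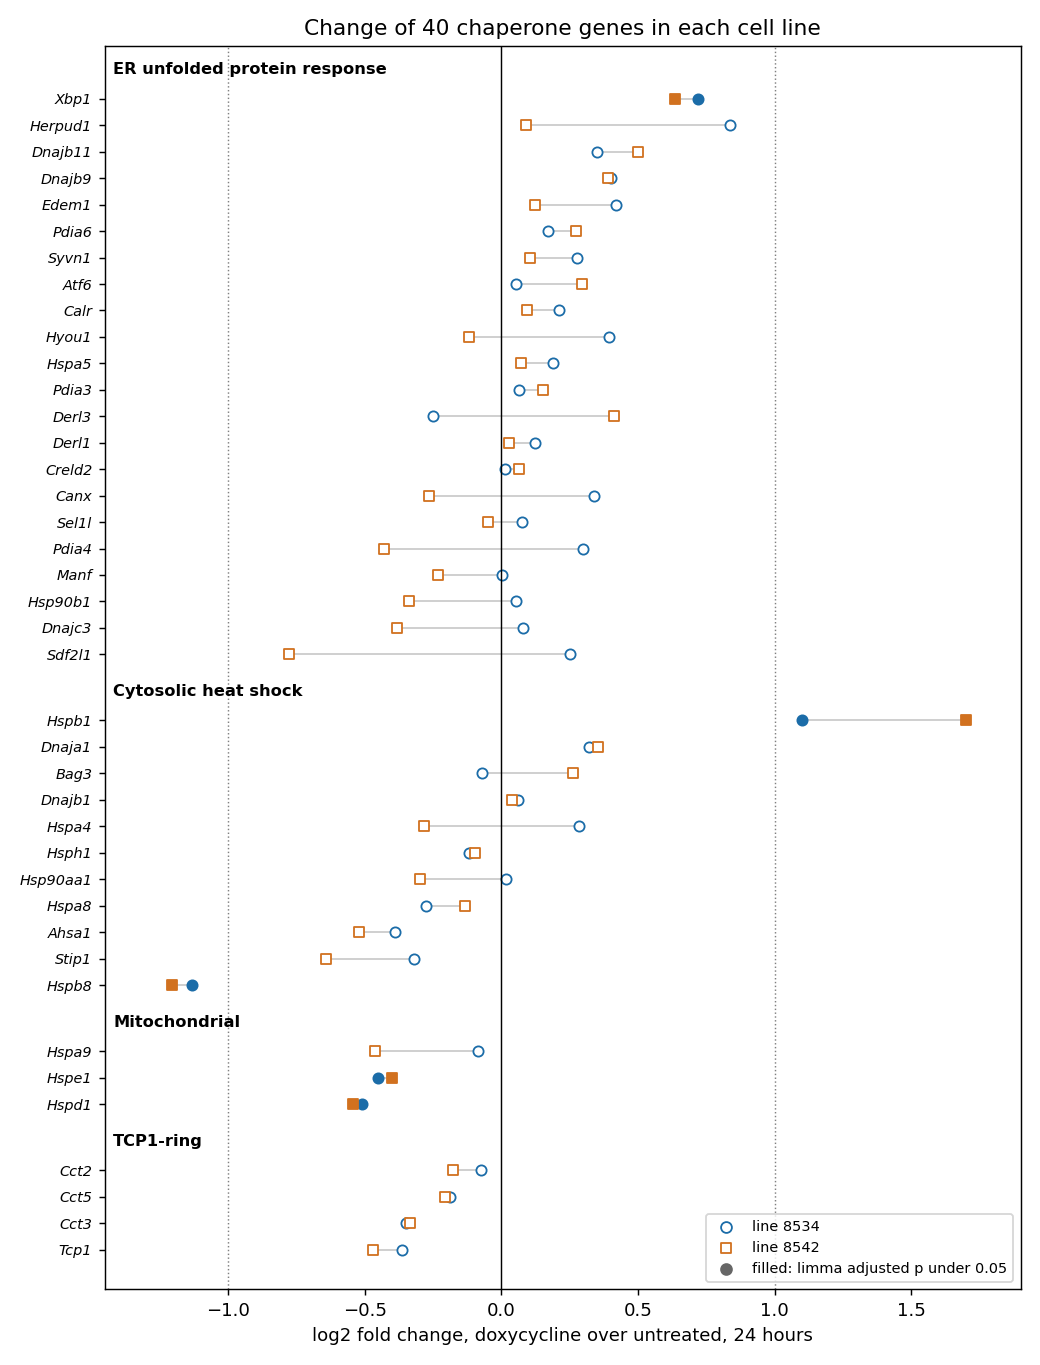
The 40 chaperone genes by group, each with its log2 fold change in both cell lines (doxycycline over untreated, 24 hours); points are filled where limma called the gene at an adjusted p under 0.05, and the dotted lines stand at 2-fold. Hspb1 (1.10 and 1.70) and Hspb8 (-1.13 and -1.20) lie outside the dotted lines in both lines, and the 4 TCP1-ring genes lie below 0.

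The 9 cytosolic members other than Hspb1 and Hspb8 did not pass the test. Of the 11 measured, 9.09% were called higher and 9.09% lower, against 4.76% and 6.95% of all tested genes. Hspa8, the constitutive Hsp70 (1455789_x_at), had 3353 and 3129 units in treated and 4058 and 3431 units in untreated 8534 and 8542 cells, log2 fold changes of -0.28 and -0.13 (limma adjusted p = 0.295). Another of its probe sets (1420622_a_at) fell 1.43-fold and 1.58-fold (limma adjusted p = 0.0187), so that the call for Hspa8 depended on the probe set. Hsp90aa1, the inducible cytosolic Hsp90, had 2462 and 2209 units in treated and 2432 and 2714 units in untreated 8534 and 8542 cells (limma adjusted p = 0.554). The nucleotide exchange factors Hspa4 and Hsph1 had mean log2 fold changes of 0.00029 and -0.11.

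Co-chaperones lay on both sides of 0. The J-domain protein Dnaja1 had 1939 and 1611 units in treated and 1550 and 1261 units in untreated 8534 and 8542 cells (mean log2 fold change 0.34 ± 0.021; limma adjusted p = 0.105), and Dnajb1 changed by 0.051. Ahsa1, which activates the Hsp90 ATPase, had 714 and 821 units in treated and 936 and 1178 units in untreated cells of the same lines. Its mean log2 fold change of -0.45 ± 0.092 missed the threshold (limma adjusted p = 0.0558). Stip1, the adaptor that joins Hsp70 to Hsp90, had 361 and 274 units in treated, against 451 and 427 units in untreated 8534 and 8542 cells (-0.48 ± 0.23; limma adjusted p = 0.0948). The median of the 11 measured cytosolic members was -0.071 in line 8534 and -0.13 in line 8542, with 3 higher in both lines, 5 lower in both and 3 of opposite sign.

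The wider cytosolic list held changes in both directions. Of 28 genes, 2 rose (7.14%, against 4.76% of all tested genes) and 5 fell (17.9%, against 6.95%). Hspa1a, an inducible Hsp70, had 147 and 116 units in treated and 68.4 and 49.6 units in untreated 8534 and 8542 cells and rose 2.15-fold and 2.33-fold (limma adjusted p = 0.0127). Hspa1b rose 1.38-fold and 3.28-fold (limma adjusted p = 0.0476), and since these genes are near-identical copies, their signals cannot be told apart with certainty. Hspa14, an Hsp70 of the ribosome-associated complex, fell 2.08-fold and 1.92-fold (limma adjusted p = 0.0077). The Hsp90 immunophilins Fkbp5 and Fkbp4 fell 1.85-fold and 1.82-fold, and 1.53-fold and 1.65-fold (limma adjusted p = 0.0093 and 0.028). The 2 others that fell, named after their values were seen, were Bag1, an Hsp70 nucleotide exchange factor, and the ubiquitin ligase Stub1 (limma adjusted p = 0.0283 and 0.0219).

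The mitochondrial pair of Hsp60 and Hsp10 fell together. Of the 3 mitochondrial members 2 were called lower (66.7%, against 6.95% of all tested genes) and 0 higher (against 4.76%). The list is short and was chosen with earlier results of these data known, so this share was not tested. Hspd1 (1426351_at), the gene of Hsp60, had 1955 and 2468 units in treated 8534 and 8542 cells, against 2784 and 3595 units in untreated cells, without overlap. It fell 1.42-fold and 1.46-fold, or -0.53 ± 0.023 on the log2 scale (SD over 2 lines, limma adjusted p = 0.0197). Hspe1 (1450668_s_at), the gene of its lid Hsp10, had 1415 and 2051 units in treated and 1934 and 2704 units in untreated 8534 and 8542 cells. The ranges of the conditions overlapped, since line 8542 had the higher signal in either condition, and within the lines Hspe1 fell 1.37-fold and 1.32-fold (-0.42 ± 0.037; limma adjusted p = 0.0479). Its second probe set (1422579_at) was lower by 1.34-fold and 1.36-fold and did not pass (limma adjusted p = 0.0622). Without the expression filter neither Hspd1 nor Hspe1 passed (limma adjusted p = 0.0535 and 0.096). Hspe1 also missed the threshold with quantile normalization, with median centring and with its probe sets averaged (limma adjusted p = 0.0879, 0.0643 and 0.0617).

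Hspd1 and Hspe1 lie head to head on chromosome 1, with 215 bases between the Hspe1 start and 1 of 2 Hspd1 starts in RefSeq. Between them lies a heat shock element, searched as 3 units of GAA and TTC in turn with 2 bases between units, which 0.603% of all windows held. Of the other members, Hsph1 held one. The element is shown because this single stretch lies in the windows of both Hspd1 and Hspe1, chr1:55088053-55088082, plus strand, with both overlapping matches in capitals. Hspb8, which also fell, was not among the members with a match.
Hspd1 and Hspe1 element: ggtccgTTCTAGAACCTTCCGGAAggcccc

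Hspa9, the mitochondrial Hsp70 (1418504_at), had 750 and 472 units in treated and 795 and 649 units in untreated 8534 and 8542 cells. It did not pass (log2 fold changes of -0.084 and -0.46, limma adjusted p = 0.305), and 2 of its 5 probe sets had opposite signs in the lines. Of 10 other mitochondrial chaperones and proteases, 1 rose (10%, against 4.76% of all tested genes) and 0 fell (against 6.95%). The gene that rose was Grpel2, a nucleotide exchange factor of Hspa9, which had 353 and 303 units in treated and 215 and 191 units in untreated 8534 and 8542 cells (0.69 ± 0.039; limma adjusted p = 0.0277). The median of these 10 was -0.14 in line 8534 and -0.37 in line 8542.

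The subunits of the TCP1 ring were lower together by small amounts. Tcp1 itself had 1949 and 1191 units in treated and 2507 and 1647 units in untreated 8534 and 8542 cells, log2 fold changes of -0.36 and -0.47 (limma adjusted p = 0.056). Cct3 changed by -0.35 and -0.33, Cct5 by -0.19 and -0.21 while Cct2 had 2406 and 2392 units in treated and 2530 and 2704 units in untreated 8534 and 8542 cells (-0.072 and -0.18). None of the 4 was called, where 4.76% of all tested genes were called higher and 6.95% lower (a count of 0 in 4 genes is close to these shares). The median was -0.27 in both lines. The remaining subunits, from the wider list, were Cct4, Cct6a, Cct7 and Cct8. Cct7 fell 1.32-fold and 1.55-fold (limma adjusted p = 0.0349) and Cct8 fell 1.45-fold and 1.36-fold (limma adjusted p = 0.0452). By the probe set of highest mean signal for each gene, all 8 subunits measured had lower signals in treated cells of both lines, with a median of -0.31 in line 8534 and -0.36 in line 8542, where 33.3% of all tested genes were lower in both. Other probe sets of Cct3 were split: 1416024_x_at had 1541 and 1928 units in treated and 1992 and 1660 units in untreated 8534 and 8542 cells, so that it was higher in treated 8542 cells. Of the 13 genes of that list, which also holds prefoldin, 2 fell (15.4%, against 6.95% of all tested genes) and 0 rose (4.76%).

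**Figure D3:**
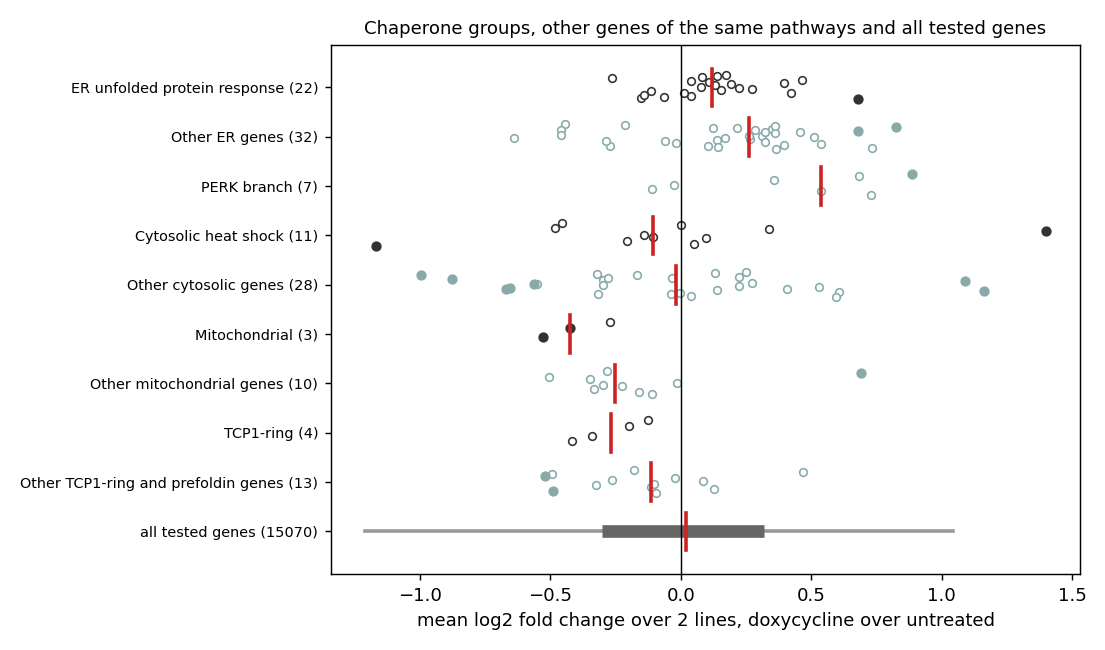
Mean log2 fold change over the 2 lines (doxycycline over untreated) for each chaperone group (dark points), for other genes of the same pathways (light points) and for all tested genes (thick bar, middle 50%; thin bar, 5th to 95th percentile); filled points are called by limma, red bars are medians and the number of genes is in brackets. The ER group has a median of 0.12 and the cytosolic, mitochondrial and TCP1-ring groups of -0.11, -0.42 and -0.27.

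The 4 groups thus had medians on both sides of 0: the ER genes above it in both lines, and the cytosolic, mitochondrial and TCP1-ring genes below it. These medians are descriptions of short lists, and no test of the difference between the groups was made. Probe sets bear on them. Of 40 members 29 had more than 1, and averaging all probe sets of a gene gave medians of 0.06 for the ER, -0.21 for the cytosolic, -0.53 for the mitochondrial and -0.20 for the TCP1-ring group.

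**Figure D4:**
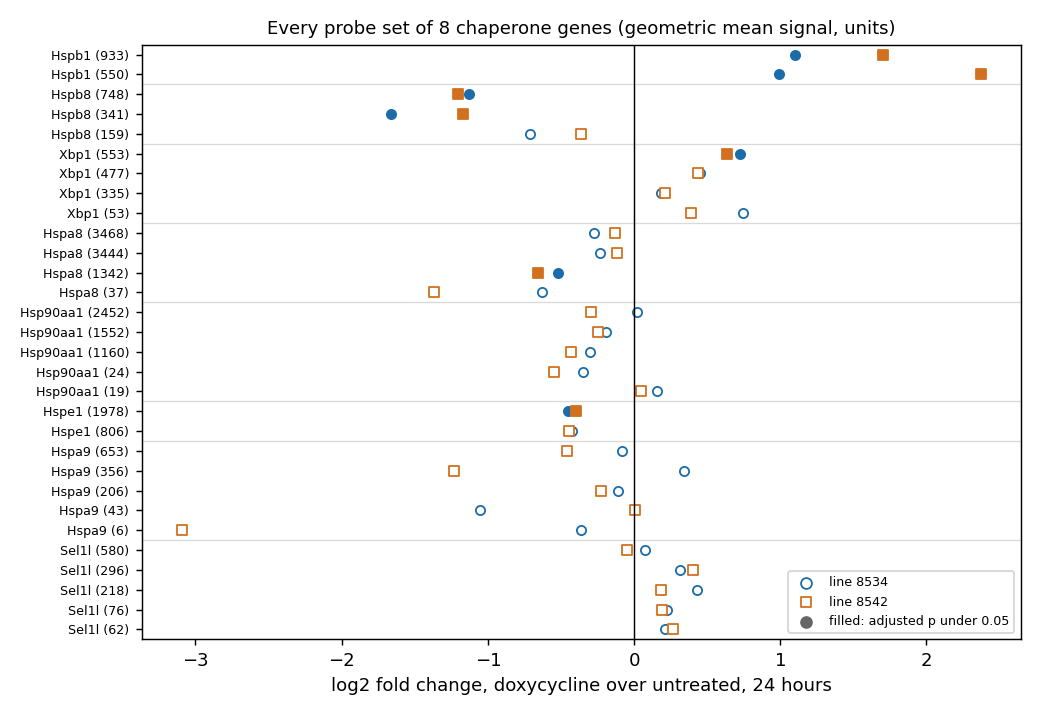
Every probe set of 8 chaperone genes with its log2 fold change after 24 hours (doxycycline over untreated), 1 point per cell line and the geometric mean signal in units in brackets; filled points have a limma adjusted p under 0.05. All probe sets of Hspb1, Xbp1, Hspb8 and Hspe1 keep to 1 side of 0, whereas those of Hspa9, Hsp90aa1 and Sel1l lie on both.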

How the data were processed

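RNA of cell lines 8534 and 8542 was measured on 4 Affymetrix arrays. MAS5, which corrects background and scales each array, was run by the authors, and the deposited values are the log2 of its signal. No source states the log base: base 2 gives trimmed means of 97.7 to 101.8 units on every array. The MAS5 version is not given in the sources used here. Of 45101 probe sets, 64 controls were left out. The platform annotation gave 1 gene symbol to 34945, several to 932 and none to 9160, and only the first were named. The number of arrays limits the precision. limma 3.58.1 (R 4.3.3) was fitted to 33778 probe sets with terms for line and treatment, eBayes and an intensity trend, leaving 1 residual and 6.18 prior degrees of freedom. A run on simulated data drew its spreads from this same model, with the same change in both lines. It was therefore a check of the code and does not bear on the calls. Line was a block, since treated and untreated cells share it (correlation of their deviations 0.36). The lines themselves could not be tested against each other. Promoter windows are RefSeq's, for 33 members. Members and lists were chosen with earlier results of these data known. By the rule for named genes, every member was accounted for, and values per array were due for members called, past the 2-fold rule, or at an end of their group, and for up to 3 called genes of each wider list in each direction. Values per array of further members, and Ddit3, Sesn2, Atf4, Chac1, Ppp1r15a, Trib3, Bag1, Stub1, Cct4 and Cct6a, were added after their values were seen. Alternatives were other expression filters, the 20th percentile (5.52 units) as a floor or as a pseudocount, quantile normalization, median centring, no trend, no block and the mean of all probe sets.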

Additional observations from a re-analysis of the deposited data

Results flagged for a closer look

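Of the 40 members, 12 changed in opposite directions in the 2 lines. With 1 array per line and condition these differences were not tested, and 33.3% and 34.2% of all tested genes were lower and higher in both lines, so that opposite signs were common. As the log2 change in line 8542 minus that in line 8534, the widest was Sdf2l1 (-1.03), followed by Pdia4 (-0.73), Derl3 (0.66), Canx (-0.60), Hspa4 (-0.57) and Hyou1 (-0.51). The others were Dnajc3 (-0.46), Hsp90b1 (-0.39), Bag3 (0.33), Hsp90aa1 (-0.31), Manf (-0.23) and Sel1l (-0.12). In 10 of the 12 the change was lower in line 8542, and the same share was not counted over the 4886 of 15070 tested genes with opposite signs. None of the 12 was called by limma.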

How the results depend on the processing

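Hspb1, Hspb8 and Hspd1 kept their direction under every alternative listed in the processing, and Xbp1 and Hspe1 did as well. The number of calls rested on the variance model and the pairing. Without the intensity trend 0 probe sets were higher and 0 lower by limma (2444 and 2846 at an unadjusted p under 0.05), with 0 and 0 members (2 and 1 at that p). Without the block by line 9 probe sets were higher and 83 lower, with 0 and 0 members (unadjusted p under 0.05 in 1 and 1). With the probe sets of each gene averaged, 539 entries were higher and 909 lower, where an entry is a gene or a probe set without a single gene symbol. In that setting 1 member was higher and 0 members were past 2-fold lower. Among members lower, the count was 1 without the expression filter and 5 with the filter at the 50th percentile or with the floor, which added Ahsa1 and Tcp1. The call for Hspe1 was also lost with quantile normalization, median centring and averaged probe sets (limma adjusted p = 0.0879, 0.0643 and 0.0617), and that for Xbp1 with averaged probe sets (0.098). Group medians moved by more than the spread between lines for the cytosolic genes (-0.0502 with quantile normalization, -0.21 over all probe sets), the mitochondrial genes (-0.33 and -0.53, and -0.46 to -0.45 with either line left out) and the TCP1 ring (-0.20 in both, and -0.28 with median centring). The median of all tested probe sets was 0.041 or less under every scaling. Signs of members that were not called turned with the probe sets averaged for Canx (-0.065), Pdia3 (-0.11), Pdia4 (0.015), Pdia6 (-0.11), Hyou1 (-0.070), Derl1 (-0.022), Dnajb1 (-0.036) and Hspa4 (-0.34, and -0.0062 with median centring). With 1 line left out no test is possible, and the value is the change in the other line. The cause of these shifts was not tested.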
